A study of Drosophila melanogaster with 72 samples.

Results

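The daily course of gene expression was followed in skeletal muscle of mhc flies, the driver-only control of a transgenic experiment. The 12 mhc libraries were chosen by genotype label and make up 12 of the 72 libraries of the series, with 3 libraries at each of ZT0, ZT6, ZT12 and ZT18. Zeitgeber time (ZT) counts hours of the lighting schedule. The mhc flies carry the Mhc-Gal4 transgene, in which the promoter of the muscle myosin heavy chain gene drives the yeast transcription factor Gal4, and they serve as the control for mhc>timeless, where the same driver also turns on timeless (tim), a clock gene, in muscle. The 11 mhc>timeless libraries (2 at ZT0, 3 at the other times) and the 10 day-course libraries of B3, a parental strain whose labels name no transgene (3 at ZT0 and ZT12, 2 at ZT6 and ZT18) were used here only for comparison. The labels give no treatment beyond genotype and no sex, age or rearing condition for these groups, and they do not say whether libraries of a group came from separate animals, so the p-values speak only to variation among these libraries, part or all of which may be technical. The labelled times span 1 daily cycle and do not tell days of collection apart, so a difference between times is not shown to recur from day to day.

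The fly clock is a feedback loop. The activators Clock (Clk) and cycle (cyc) turn on period (per) and timeless (tim), whose proteins build up in the evening and at night and then block the activators. A second loop through vrille (vri) and Pdp1 feeds back on Clk, clockwork orange (cwo) represses the same targets, and cryptochrome (cry) passes light signals to tim protein. Clocks of this kind run in many tissues of the fly, and feeding, light and temperature also shape daily expression there.

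The 16 muscle marker genes, such as the myosin heavy chain, troponin and flight muscle actin genes, summed to 29646 to 33438 CPM (counts scaled to library size) in the 12 mhc libraries, and 1 of the 16 (Mef2) was called for time of day. By time the muscle sum was 30611 to 33438 CPM at ZT0, 32076 to 32589 at ZT6, 29646 to 30756 at ZT12 and 30201 to 31557 at ZT18, so ZT12 and ZT18 both lay below ZT6 without overlap. RNA of other tissues was also present. The 18 fat body genes summed to 17822 to 19951 CPM, the 34 gut genes to 10058 to 13012 CPM and the 14 neuron genes to 1411 to 1788 CPM, while the 16 testis genes came to 1.02 to 7.88 CPM. The oenocyte list, led by Cyp4g1, was uneven, at 493 to 8893 CPM. In a bulk sample, fewer cells of a type and less RNA per cell cannot be told apart.

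Library totals were 53.1 to 71.9 M counts at ZT0, ZT6 and ZT12 and 148 to 168 M at ZT18, so the ZT18 group was deeper throughout. In mhc>timeless the totals were 124 to 170 M, like those of mhc at ZT18. Any difference in handling between ZT18 and the other mhc times cannot be told apart from time of day. Replicate 3 at ZT12 stood apart: its 17 photoreceptor genes summed to 4880 CPM, against 67.3 to 97.7 CPM in the other 11 mhc libraries. In that library 33 genes were above 1 CPM and more than 8 times as high as in every other mhc library, 15 of them on the photoreceptor list and 14 of them called for time of day. The mhc>timeless library of ZT18 replicate 3 had the same list at 6580 CPM. Replicate 1 at ZT0 held the highest oenocyte sum, 8893 CPM, and the highest yolk and ovary sum, 49.1 CPM.

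Expression differed among the 4 times for 1971 of 11074 genes tested, a share of 17.8% (edgeR quasi-likelihood joint test, adjusted p under 0.05, the meaning of called throughout). By the highest time-point mean, ZT12 and ZT18 took most of the peaks: 694 called genes (6.27% of genes tested) had their highest mean at ZT12 and 655 (5.91%) at ZT18, against 394 (3.56%) at ZT0 and 228 (2.06%) at ZT6. The ZT6 count became 123, 133 and 145 without ZT12 replicates 1, 2 and 3 and 151 without ZT18 replicate 2, and the ZT18 count 425 and 421 without ZT12 replicates 1 and 2. With the 11 mhc>timeless libraries in the same fit the order of the leading times turned, to 1113 at ZT18 and 879 at ZT12, and DESeq2 gave 1084 at ZT12 and 855 at ZT18. Assigned instead to the time nearest the crest of the 24 h component, 592 genes fell to ZT12, 498 to ZT0, 451 to ZT6 and 430 to ZT18, so that split depends on how a peak is defined. Lowest means fell at ZT18 for 694 genes (6.27%), at ZT12 for 553 (4.99%), at ZT0 for 435 (3.93%) and at ZT6 for 289 (2.61%). Changes were mostly small. The amplitude, which is the log2 difference between a gene's top and bottom time-point means, had a median of 0.32 over called genes and 0.19 over all genes tested, and 186 called genes (1.68%) reached an amplitude of 1.

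Peaks and troughs were often next to each other. Of the 694 genes that were highest at ZT12, 361 were lowest at ZT18, and of the 655 highest at ZT18, 292 were lowest at ZT12. Of the 394 highest at ZT0, 238 were lowest at ZT18 and 21 at ZT6. The 24 h component, fitted from the contrasts of ZT0 with ZT12 and of ZT6 with ZT18, was called for 1418 genes (12.8%), and the 12 h component, the mean of ZT0 and ZT12 against the mean of ZT6 and ZT18, for 929 (8.39%). Between the opposite times, 549 genes were higher (4.96%) and 441 lower (3.98%) at ZT12 than at ZT0, and 335 were higher (3.03%) and 356 lower (3.21%) at ZT18 than at ZT6. With the 11 mhc>timeless libraries in the same fit, 702 were higher and 700 lower at ZT12 than at ZT0, and 601 higher and 425 lower at ZT18 than at ZT6. These counts changed with single libraries left out, which also leaves fewer libraries for the test. The 990 genes that differed between ZT12 and ZT0 became 556 without ZT0 replicate 3 and 562 without ZT12 replicate 1. The 691 that differed between ZT18 and ZT6 became 378, 355 and 297 without ZT6 replicates 1, 2 and 3 and 451 without ZT18 replicate 2. The 24 h count was 936 without ZT12 replicate 1, and the 12 h count was 562 and 582 without ZT6 replicates 2 and 3 and 605 without ZT12 replicate 1.

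The count of called genes was also taken at equal depth and with time points left out. Leaving out a time point also removes 3 libraries and a contrast, so the 2 kinds of count are not alike. With every library thinned to the smallest total 1801 genes were called, 1709 of them among the 1971. Without the 3 deep ZT18 libraries 988 were called, without ZT12 (chosen after seeing the data) 751, and without ZT12 replicate 3 alone 1466, of which 1393 were among the 1971. Leaving out ZT12 replicate 1 gave the lowest single-library count, 1341.

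**Figure D1:**
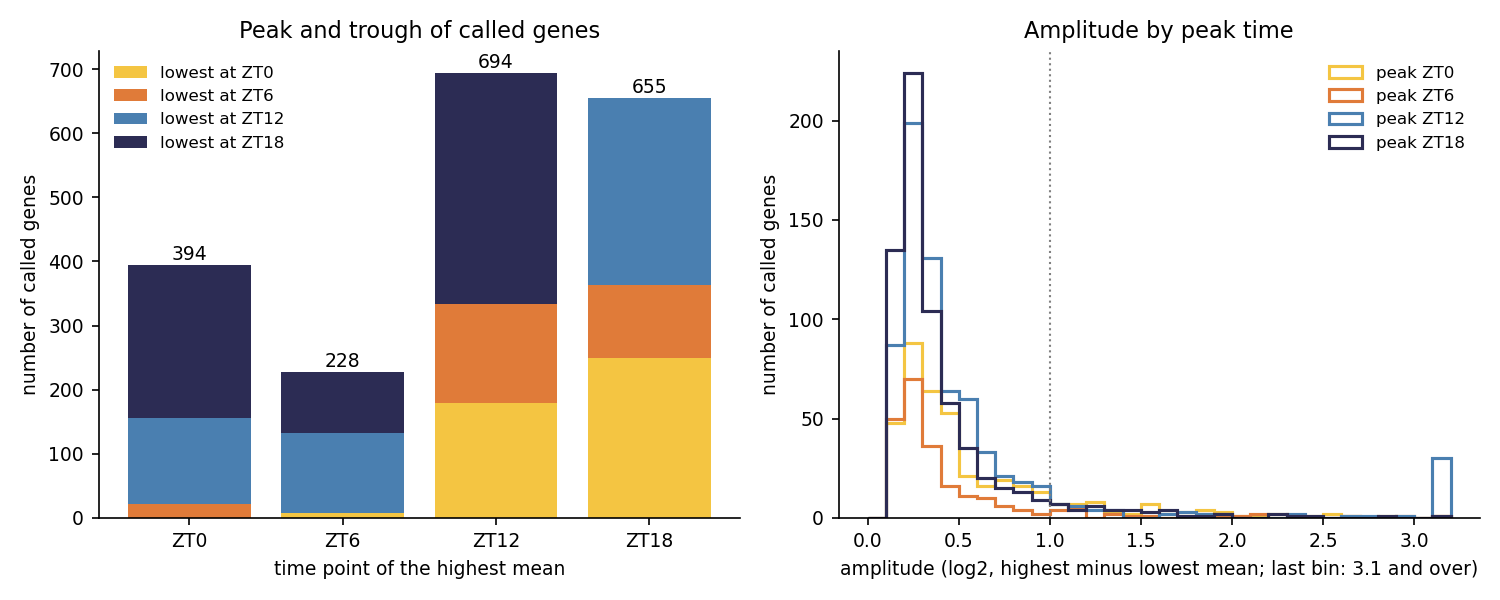
Called genes of the mhc day course by time of day. Left, number of called genes by time point of the highest mean, with colours for the time point of the lowest mean (694 genes peak at ZT12 and 655 at ZT18). Right, histogram of amplitude (log2) by peak time, with a dotted line at 1, which 186 of the 1971 called genes reached.

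Of the 8 core clock genes 7 were called (87.5%, against 17.8% of all genes), 4 with their highest mean at ZT18 and 3 at ZT12. Levels of tim, per, vri and Pdp1 were highest at ZT18, and those of cwo, Clk and cry at ZT12. Clk and cry were lowest at ZT18. The median amplitude over the 8 was 0.82, against 0.19 over all genes tested.

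The repressor gene tim had the largest swing of the clock genes. Its libraries read 295, 281 and 272 CPM at ZT0, 146, 155 and 144 CPM at ZT6, 270, 261 and 282 CPM at ZT12 and 738, 763 and 814 CPM at ZT18. ZT6 was lowest and ZT18 highest with no overlap, while the ranges of ZT0 and ZT12 overlapped. The amplitude was 2.38 ± 0.053 (SE; adjusted p = 2.52e-09), with a crest of the 24 h component at 18.1 h. Its partner per read 17.01, 19.1 and 17.7 CPM at ZT0, 18.8, 18.1 and 18.9 CPM at ZT6, 28.3, 26.6 and 29.6 CPM at ZT12 and 41.7, 46.4 and 49.9 CPM at ZT18. Levels of per overlapped at ZT0 and ZT6 and were higher at ZT12 and highest at ZT18, with an amplitude of 1.36 ± 0.068 (adjusted p = 2.57e-06) and a crest at 16.2 h.

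Genes of the second loop were also highest at ZT18. The repressor gene vri read 210, 202 and 176 CPM at ZT0, 189, 185 and 181 CPM at ZT6, 220, 234 and 198 CPM at ZT12 and 365, 353 and 375 CPM at ZT18. Its ranges at ZT0 and ZT12 overlapped and ZT18 stood alone, with an amplitude of 0.98 ± 0.072 (adjusted p = 2.85e-05). Pdp1, the activator of this loop, read 447, 412 and 397 CPM at ZT0, 378, 377 and 374 CPM at ZT6, 466, 456 and 459 CPM at ZT12 and 697, 630 and 623 CPM at ZT18 (amplitude 0.79 ± 0.052, adjusted p = 2.66e-05). Every ZT18 library of Pdp1 was above every other, and every ZT6 library was below. The crests were at 17.4 h for vri and 17.3 h for Pdp1.

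The repressor gene cwo reached its highest level earlier. It read 94.1, 95.2 and 82.96 CPM at ZT0, 82.1, 86.2 and 90.0 CPM at ZT6, 155, 159 and 151 CPM at ZT12 and 113, 118 and 122 CPM at ZT18. ZT12 was above ZT18 and ZT18 above both day times in every library, while ZT0 and ZT6 overlapped (amplitude 0.85 ± 0.057, adjusted p = 2.04e-05, crest at 14.0 h).

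Clk, the activator gene, was lowest at ZT18. It read 34.8, 34.3 and 34.2 CPM at ZT0, 35.0, 39.8 and 38.0 CPM at ZT6, 39.3, 36.5 and 38.2 CPM at ZT12 and 22.4, 22.9 and 23.3 CPM at ZT18. ZT6 and ZT12 overlapped and the ZT18 libraries stood alone (amplitude 0.73 ± 0.046, adjusted p = 1.85e-05). The light receptor gene cry read 237, 245 and 242 CPM at ZT0, 279, 288 and 272 CPM at ZT6, 297, 293 and 297 CPM at ZT12 and 232, 218 and 217 CPM at ZT18. Its ranges did not overlap between any of the 4 times, and the amplitude of 0.41 ± 0.036 was the smallest of the called clock genes (adjusted p = 1.13e-04). The Clk partner cyc lay between 30.7 and 36.1 CPM in all 12 libraries and was not called (adjusted p = 0.807).

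**Figure D2:**
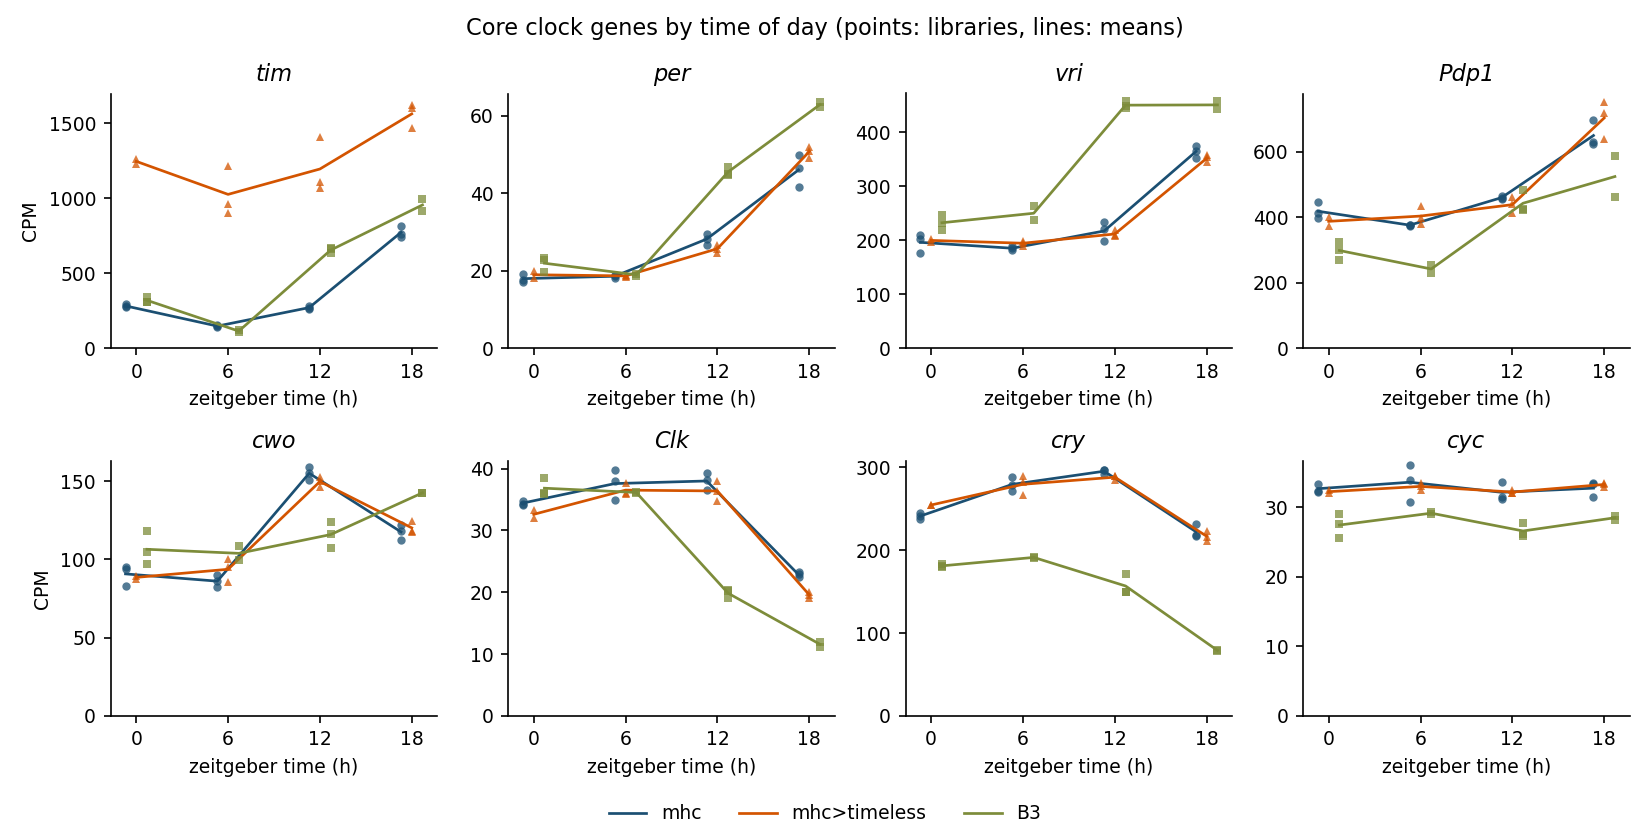
Core clock genes by zeitgeber time (h), in CPM on linear axes, for mhc (circles), mhc>timeless (triangles) and B3 (squares); points are libraries, shifted sideways by group so that they can be seen, and lines join the means. In mhc, tim, per, vri and Pdp1 are highest at ZT18, cwo at ZT12, Clk and cry are lowest at ZT18, and cyc is flat.

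Of 19 clock kinases, phosphatases and ubiquitin ligases 1 was called (5.26%, against 17.8% of all genes). It was the casein kinase 2 subunit gene CkIIalpha (amplitude 0.18 ± 0.044, adjusted p = 0.043), and its call was lost in 10 of the 12 fits that leave out 1 library. The list's median amplitude was 0.12, against 0.19 over all genes tested. By correlation of log2 CPM over the 12 libraries, the called genes most like tim were Pdp1 (r = 0.96), the nucleoside transporter gene Ent1 (0.94), the ecdysone-inactivating cytochrome P450 gene Cyp18a1 (0.94), vri (0.93) and the phosphatase gene Plip (0.92). Ent1 went from 44.1 ± 0.225 CPM at ZT6 to 56.4 ± 1.66 CPM at ZT18 (SD, n = 3 each) and Cyp18a1 from 14.6 ± 1.35 to 23.4 ± 0.506 CPM.

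Some genes with daily rhythms known from fly heads and bodies also differed by time in mhc muscle, with peaks spread over the day. Of 19 such output genes 10 were called (52.6%, against 17.8% of all genes), 4 highest at ZT0, 4 at ZT12 and 2 at ZT18. Takeout (to), a secreted protein gene tied to feeding, read 616, 451 and 444 CPM at ZT0, 208, 230 and 287 CPM at ZT6, 171, 174 and 166 CPM at ZT12 and 184, 146 and 162 CPM at ZT18. All ZT0 libraries were above all others, and the ZT12 and ZT18 libraries overlapped (amplitude 1.62 ± 0.147, adjusted p = 8.32e-05). CG10553 fell from 117 ± 14.6 CPM at ZT0 to 35.9 ± 3.91 CPM at ZT18 (adjusted p = 8.62e-05). Gclm, a subunit of the enzyme that starts glutathione synthesis, was highest at ZT12, at 155 ± 4.72 CPM against 105 ± 6.54 CPM at ZT6 (adjusted p = 3.11e-04).

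Among called genes averaging 2 or more in log2 CPM whose peak and trough libraries did not overlap, the 6 of largest amplitude with a ZT0 peak, CG34180, CG13325, CG32984, CG11407, CG17127 and CG8834, were all lowest at ZT18, but by different courses. CG34180 read 19.1, 20.8 and 27.6 CPM at ZT0, 8.02, 8.03 and 6.47 CPM at ZT6, 5.27, 5.06 and 4.58 CPM at ZT12 and 3.97, 3.05 and 2.68 CPM at ZT18. Each time point was below the preceding one without overlap (amplitude 2.80 ± 0.175, adjusted p = 1.60e-05). The same order held for CG16772, from 705 ± 38.98 CPM at ZT0 to 310 ± 24.1 CPM at ZT18, and for CG17127, from 15.05 ± 1.32 to 3.40 ± 0.964 CPM. CG11407, an acyl-CoA synthetase family member by its RefSeq name Acsx3, was highest at ZT0 (193 ± 18.7 CPM) and lowest at ZT18 (41.8 ± 6.30 CPM; amplitude 2.20 ± 0.138), with overlapping ranges at ZT6 and ZT12. CG13325 went from 33.4 ± 17.96 CPM at ZT0 to 5.76 ± 2.62 CPM at ZT18 (amplitude 2.54 ± 0.381, adjusted p = 0.00671), and its ZT0 mean rested largely on replicate 1, at 54.1 CPM. CG32984 went from 12.9 ± 3.87 to 2.39 ± 0.589 CPM (amplitude 2.43 ± 0.334), with overlapping libraries at ZT6 and ZT12. CG8834 did not fall through the day: it was at 25.9 ± 5.26, 22.4 ± 3.25 and 22.5 ± 3.47 CPM at ZT0, ZT6 and ZT12 and at 6.63 ± 1.40 CPM at ZT18 (amplitude 1.97 ± 0.196).

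Other genes at ZT0 had a secondary rise at ZT12. The metalloprotease gene Invadolysin read 202, 198 and 229 CPM at ZT0, 109, 116 and 111 CPM at ZT6, 163, 158 and 148 CPM at ZT12 and 82.1, 98.2 and 85.7 CPM at ZT18. All 4 groups were separate, and both the joint test (adjusted p = 1.60e-05) and the 12 h component (adjusted p = 1.60e-05) called it. CG31300 had the same order of times, with 97.2 ± 4.77 CPM at ZT0, 63.9 ± 4.69 at ZT6, 72.5 ± 1.36 at ZT12 and 49.4 ± 2.22 at ZT18.

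A related pattern was a level that held from ZT0 to ZT12 and then dropped. Jhe, which encodes the esterase that breaks down juvenile hormone, read 10.1, 13.3 and 11.2 CPM at ZT0, 13.8, 9.93 and 13.01 CPM at ZT6, 12.7, 10.8 and 13.1 CPM at ZT12 and 1.55, 1.76 and 1.52 CPM at ZT18. The first 3 times overlapped and ZT18 stood far below, with an amplitude of 2.93 ± 0.147 (adjusted p = 5.49e-06). CG2277, a nucleotidase gene by its RefSeq name Nt5a, was likewise at 33.7 to 37.6 CPM in the 9 earlier libraries and at 23.7 to 24.3 CPM at ZT18 (adjusted p = 7.12e-06). The juvenile hormone receptor gene gce was lowest at ZT18 as well, at 76.4 ± 2.05 CPM against 95.0 ± 2.91 CPM at ZT0, and of the 23 juvenile hormone and ecdysone genes 5 were called, a share of 21.7% near the 17.8% of all genes, and 3 without ZT0 replicate 2 or ZT12 replicate 2 or 3.

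By the same limits on level and overlap, the 6 genes of largest amplitude with a ZT6 peak were Jhe, TotC, Tsp42Ea, CG5966, TotX and GIIIspla2. The tetraspanin gene Tsp42Ea had overlapping libraries at ZT0, ZT6 and ZT12 and fell to 1.93 ± 0.159 CPM at ZT18, from 7.42 ± 0.928 CPM at ZT6 (amplitude 1.95 ± 0.317, adjusted p = 0.0084). CG5966, on the lipid list, was at 156.01 ± 19.8 CPM at ZT6 and 44.2 ± 33.04 CPM at ZT12, and its call (adjusted p = 0.0479) was lost in 10 of the 12 fits that leave out 1 library. The Turandot genes encode humoral factors induced by stress and infection. TotC read 52.5, 70.9 and 55.5 CPM at ZT0, 64.0, 63.3 and 182 CPM at ZT6, 28.14, 31.6 and 20.1 CPM at ZT12 and 21.03, 22.7 and 25.7 CPM at ZT18, so its ZT6 mean rested largely on replicate 3. TotX was less uneven, with 117, 121 and 153 CPM at ZT6 and 49.3, 50.5 and 51.0 CPM at ZT18 (amplitude 1.38 ± 0.136, adjusted p = 2.91e-04). The secreted phospholipase gene GIIIspla2 was at 96.6 ± 1.54 CPM at ZT6 and 42.1 ± 13.2 CPM at ZT12. Of 36 antimicrobial and humoral immune genes 10 were called (27.8%, against 17.8% of all genes), 5 of them highest at ZT6 (2.06% of all genes), among them the regulators pirk and PGRP-LF of the immune deficiency pathway (amplitudes 0.70 and 0.30). Without the ZT18 libraries 3 of the 36 were called, and without ZT18 replicate 2 alone 6.

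ZT12, the time of lights-off in a schedule with equal light and dark, was the peak of most called genes of sugar, amino acid and fat metabolism. Of 33 sugar and amino acid transport and catabolism genes 23 were called (69.7%, against 17.8% of all genes), 15 of them highest at ZT12 (6.27% of all genes), and 13 were lowest at ZT18 (also 6.27%). Of 29 lipid genes 17 were called (58.6%), 11 highest at ZT12 and 11 lowest at ZT18. Of 23 glycolysis and glycogen genes 10 were called (43.5%), 7 highest at ZT12, with a median amplitude of 0.23. Without ZT12 replicate 3 these lists had 20, 16 and 4 called genes, and the glycolysis count was also 3 without ZT12 replicate 1 and 6 and 5 without ZT6 replicates 2 and 3.

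The genes AcCoAS, CG3523, ATPCL and ACC, whose enzymes supply acetyl-CoA and build fatty acids, were all called and highest at ZT12. AcCoAS, which makes acetyl-CoA from acetate, read 1215, 1085 and 1108 CPM at ZT0, 929, 932 and 950 CPM at ZT6, 1653, 1503 and 1607 CPM at ZT12 and 880, 995 and 897 CPM at ZT18. ZT12 was above every other time and ZT0 above ZT6 and ZT18, which overlapped (amplitude 0.78 ± 0.059, adjusted p = 3.55e-05). Fatty acid synthase (CG3523, FASN1 in RefSeq) read 4516, 3414 and 3976 CPM at ZT0, 2289, 2412 and 2485 CPM at ZT6, 4823, 4143 and 4407 CPM at ZT12 and 1682, 2529 and 2608 CPM at ZT18. Both ZT0 and ZT12 were above ZT6 and ZT18 without overlap, and the 12 h component was called (adjusted p = 9.32e-04). ATP citrate lyase (ATPCL) and acetyl-CoA carboxylase (ACC), the steps before fatty acid synthase, had amplitudes of 1.09 and 1.04 (adjusted p = 3.63e-04 and 0.00136), also highest at ZT12 and lowest at ZT18.

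CG3523 is itself on the fat body marker list. The fat body sum, which includes CG3523, was 18698 to 19951 CPM at ZT12, above its 17822 to 18576 CPM at ZT6. The mean rise of CG3523 from ZT6 to ZT12 was larger than that of the whole sum. The sum therefore does not show higher levels of the other fat body markers at ZT12. The muscle sum was lower at ZT12 than at ZT6. The part of these sums in the ZT12 peak of metabolic genes was not tested.

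Genes of fat storage and breakdown followed other courses within the same list. Lpin, the phosphatase of triglyceride synthesis, was highest at ZT12, with 655, 639 and 613 CPM there against 425, 450 and 457 CPM at ZT18 (amplitude 0.52 ± 0.05, adjusted p = 3.55e-04). The acyltransferase gene mdy was highest at ZT0 (amplitude 0.73), the fatty acid binding protein gene fabp at ZT6 (0.79) and the desaturase gene desat1 at ZT18 (0.49). Acox57D-d, a peroxisomal acyl-CoA oxidase, read 27.3, 25.5 and 24.4 CPM at ZT18 and 16.5, 15.3 and 16.0 CPM at ZT0 (adjusted p = 4.85e-05).

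By p-value the first genes of the sugar and amino acid list were CG4607 and Got1, and by amplitude at ZT12 CG3999 and CG1139. CG4607 read 150, 146 and 140 CPM at ZT0, 146, 146 and 133 CPM at ZT6, 196, 189 and 192 CPM at ZT12 and 103, 111 and 95.8 CPM at ZT18. ZT0 and ZT6 overlapped, ZT12 was above them and ZT18 below (amplitude 0.90 ± 0.056, adjusted p = 2.85e-05). The aspartate aminotransferase genes Got1 and Got2 had amplitudes of 0.58 and 0.67, Hn, the phenylalanine hydroxylase gene, 0.37, and the ornithine aminotransferase gene Oat 0.65. CG3999 went from 97.2 ± 10.1 CPM at ZT12 to 29.0 ± 7.39 CPM at ZT18 (amplitude 1.74), and the amino acid transporter gene CG1139 (acs in RefSeq) from 17.9 ± 2.90 to 5.63 ± 1.83 CPM (amplitude 1.67). In glycolysis the changes were smaller, with glucose phosphate isomerase (Pgi) at 857 ± 25.4 CPM at ZT12 and 716 ± 10.3 CPM at ZT18 and pyruvate kinase (PyK) at 1232 ± 9.85 against 1050 ± 28.8 CPM at ZT6.

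Called genes of nutrient signalling were also mostly highest at ZT12. Of 26 insulin, FOXO and TOR genes 9 were called (34.6%, against 17.8% of all genes), 8 of them highest at ZT12 (6.27% of all genes). The transcription factor gene foxo read 129, 126 and 125 CPM at ZT0, 135, 134 and 137 CPM at ZT6, 170, 165 and 166 CPM at ZT12 and 144, 131 and 136 CPM at ZT18. ZT12 stood above the other times, and ZT6 and ZT18 overlapped (amplitude 0.40 ± 0.037, adjusted p = 2.05e-04). Its known target Thor, a brake on translation, had an amplitude of 0.87 (adjusted p = 0.00609), and the insulin-like peptide gene Ilp6, the kinase gene S6k and the insulin signalling genes Pi3K21B and Pi3K92E had amplitudes of 0.18 to 0.44. Without ZT12 replicate 3, 6 of the 26 genes were called, and without ZT12 replicate 1, 5.

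The exception on that list ran opposite. Pepck, a phosphoenolpyruvate carboxykinase gene of glucose and glycerol synthesis, read 1865, 2095 and 1753 CPM at ZT0, 2638, 2597 and 2649 CPM at ZT6, 1135, 1022 and 1488 CPM at ZT12 and 3112, 3092 and 2897 CPM at ZT18. The 4 ranges did not overlap, with ZT12 lowest and ZT18 highest (amplitude 1.32 ± 0.117, adjusted p = 1.78e-04). Levels therefore rose and fell more than once over the day, and the 12 h component was called (adjusted p = 1.57e-04).

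Antioxidant genes had 8 of 21 members called (38.1%, against 17.8% of all genes), 6 highest at ZT12 (6.27% of all genes). Without ZT12 replicate 2, 5 were called. Keap1, which holds the oxidative stress factor CncC in check, was at 29.3 ± 1.41 CPM at ZT12 and 20.2 ± 1.26 CPM at ZT18, and cnc itself was highest at ZT12 with an amplitude of 0.18 (adjusted p = 0.0249). Gclc, the catalytic partner of Gclm, had an amplitude of 0.22, and the peroxiredoxin gene Prx2540-2 one of 0.94. The peroxiredoxin gene Jafrac2 was highest at ZT18, at 15.3 ± 0.373 CPM against 11.7 ± 0.563 CPM at ZT0.

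The called chaperone genes were mostly lowest at ZT12. Of 30 heat shock and chaperone genes 13 were called (43.3%, against 17.8% of all genes), 12 of them with their lowest mean at ZT12 (4.99%), and 11 were lower at ZT12 than at ZT0 with none higher (background 3.98% lower and 4.96% higher). Hsp83, the fly Hsp90, read 1374, 1269 and 1354 CPM at ZT0, 1326, 1328 and 1276 CPM at ZT6, 603, 643 and 665 CPM at ZT12 and 1086, 1076 and 1065 CPM at ZT18. ZT0 and ZT6 overlapped, ZT18 was lower and ZT12 was less than any other time (amplitude 1.06 ± 0.045, adjusted p = 1.12e-06).

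Called partners of Hsp90 and Hsp70 had the same low point. The co-chaperone gene DnaJ-1 read 220, 205 and 234 CPM at ZT0, 226, 231 and 218 CPM at ZT6, 121, 118 and 136 CPM at ZT12 and 230, 213 and 207 CPM at ZT18. The ZT12 libraries stood below and the other 3 times overlapped (amplitude 0.85 ± 0.066, adjusted p = 4.85e-05). Hop, which links Hsp70 to Hsp90, had an amplitude of 0.36, the Hsp70 family genes Hsp68 and Hsc70Cb 0.71 and 0.29, and the endoplasmic reticulum chaperone genes Hsc70-3 and Gp93 0.43 and 0.50. Gp93 was at 343 ± 12.1 CPM at ZT0, 335 ± 19.9 at ZT6, 243 ± 11.2 at ZT12 and 267 ± 8.46 at ZT18. The nearly identical Hsp70 copies Hsp70Aa, Hsp70Ab and Hsp70Bb were also called, with amplitudes that are uncertain because reads may be split between copies. Without ZT12 replicate 3, 11 of the 30 were called.

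**Figure D3:**
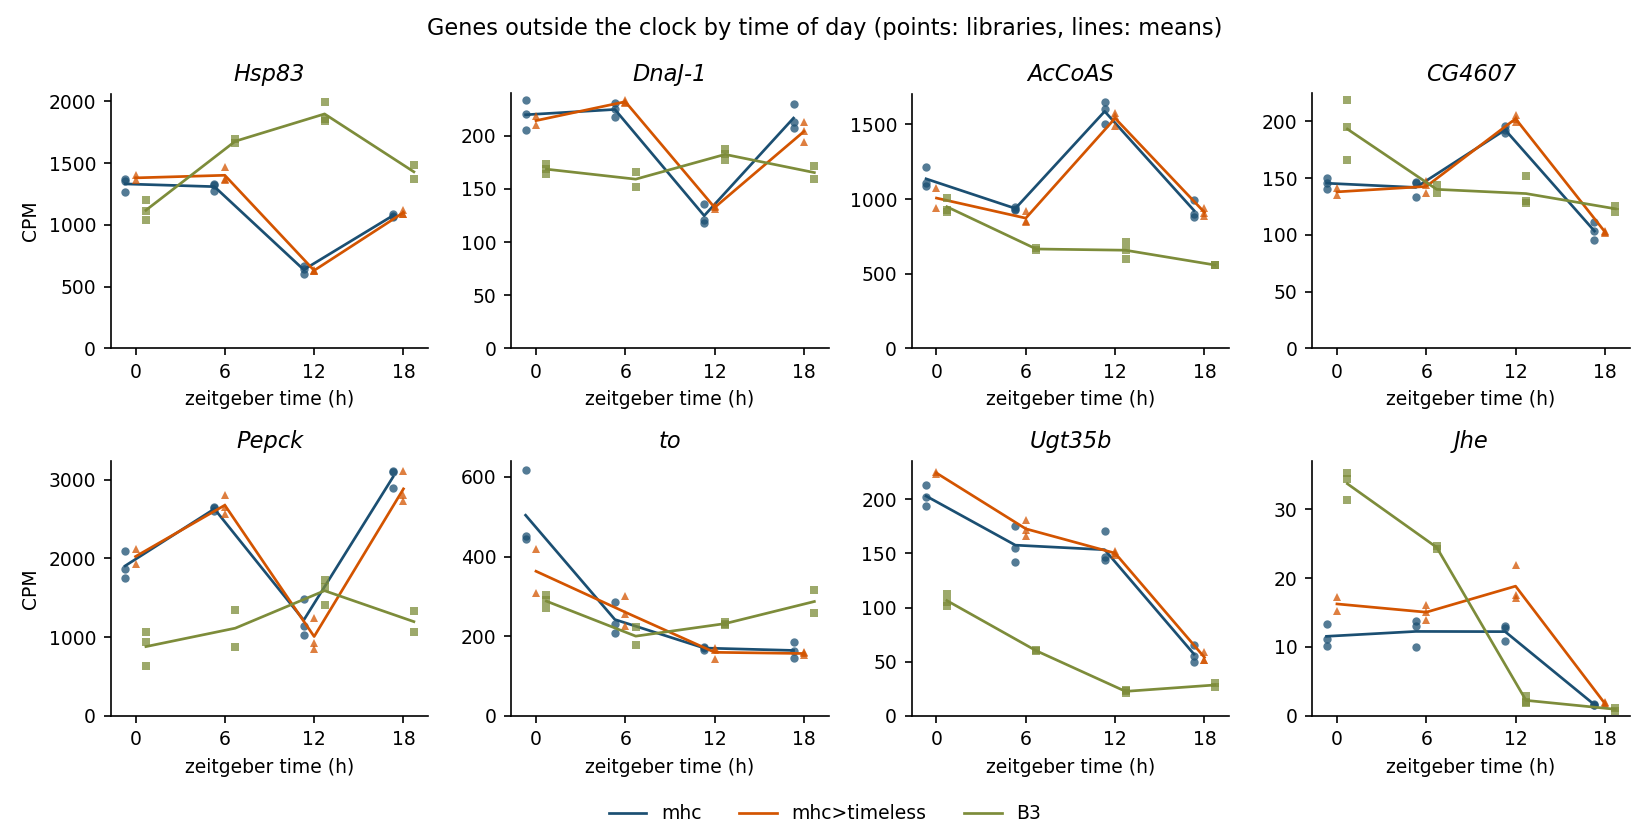
Genes outside the clock by zeitgeber time (h), in CPM on linear axes, for mhc (circles), mhc>timeless (triangles) and B3 (squares); points are libraries, shifted sideways by group, and lines join the means. In mhc, Hsp83, DnaJ-1 and Pepck are lowest at ZT12, AcCoAS and CG4607 highest there, to and Ugt35b fall from ZT0 on, and Jhe drops at ZT18.

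At ZT18 the largest amplitude within the same limits on level and overlap was that of Cyp4e3, a cytochrome P450 gene. It read 23.1, 20.6 and 22.0 CPM at ZT0, 57.4, 42.9 and 31.5 CPM at ZT6, 29.7, 36.3 and 27.6 CPM at ZT12 and 171, 102 and 93.7 CPM at ZT18. ZT18 was above every other library and ZT6 overlapped ZT12 (amplitude 2.48 ± 0.256, adjusted p = 2.72e-04). CG15199 was at 68.2 ± 11.2 CPM at ZT18 and 17.4 ± 1.46 CPM at ZT12, and CG8654 at 65.6 ± 4.83 and 26.5 ± 0.460 CPM. The digestive protease gene Jon74E, a gut marker, went from 209 ± 6.98 CPM at ZT12 to 599 ± 56.4 CPM at ZT18, while the summed gut list was 10804 to 11982 CPM at ZT12 and 10058 to 11764 CPM at ZT18.

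Detoxification genes had calls at several phases. Of 78 cytochrome P450 genes 29 were called (37.2%, against 17.8% of all genes), 15 of them highest at ZT18 (5.91% of all genes) and 7 lowest there. The count of 29 became 19 without ZT12 replicate 1. Among the ZT18 peaks was Cyp6d5 at 319 ± 5.10 CPM against 211 ± 12.98 CPM at ZT6 (adjusted p = 1.08e-04). Of 23 glutathione transferase genes 8 were called (34.8%), 7 of them lowest at ZT18, and of 16 UDP-glucuronosyltransferase genes 6 were called (37.5%), 5 of them lowest at ZT18. Of all genes 6.27% were called with a ZT18 trough. The families were not tested against each other. Without the ZT18 libraries 11, 3 and 2 genes of these 3 families were called.

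Ugt35b read 202, 194 and 213 CPM at ZT0, 155, 175 and 142 CPM at ZT6, 146, 170 and 144 CPM at ZT12 and 65.1, 55.7 and 50.1 CPM at ZT18. ZT0 was above the overlapping ZT6 and ZT12 libraries, and ZT18 was well below (amplitude 1.83 ± 0.107, adjusted p = 1.90e-05). GstE9 read 244, 237 and 250 CPM at ZT0, 205, 205 and 196 CPM at ZT6, 191, 183 and 196 CPM at ZT12 and 141, 155 and 142 CPM at ZT18 (amplitude 0.74 ± 0.046, adjusted p = 2.85e-05). The transporter gene Mdr50, an exporter of foreign compounds, was highest at ZT12 (52.9 ± 6.45 CPM) and lowest at ZT18 (14.1 ± 5.89 CPM), as was GstD8 (38.8 ± 0.920 and 11.03 ± 2.92 CPM).

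Few genes of the sarcomere, the respiratory chain and the mitochondrial ribosome were called. Of 19 citrate cycle genes 4 were called (21.1%, near the 17.8% of all genes). That count was 3 to 4 with each library left out in turn and 7 by DESeq2. Of 32 sarcomere genes 1 was called, the kinase gene sqa (amplitude 0.17 ± 0.038, adjusted p = 0.0374), which lost its call in 9 of the 12 fits that leave out 1 library. None of 31 nuclear respiratory chain genes and none of 71 mitochondrial ribosomal protein genes were called in this test. Of 84 cytosolic ribosomal protein genes 3 were called, of 26 proteasome genes 2, of 31 translation genes 3 and of 44 ribosome biogenesis genes 4, all shares below the 17.8% of all genes. Without ZT18 replicate 3, 0 of the 84 were called, 3 of the 71 mitochondrial ribosomal protein genes and 1 of the 31 respiratory chain genes. Median amplitudes of these lists ran from 0.075 for cytosolic ribosomal proteins to 0.18 for the proteasome, against 0.19 for all genes tested. At an unadjusted p under 0.05 edgeR had 1 of the 31 and 7 of the 71, while DESeq2 called 1 and 3 and limma with voom 0 of each.

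Several of the called members of these lists had p-values close to the threshold. The 3 translation genes eIF3-S9, Aats-asn and Aats-arg (amplitudes 0.12 to 0.14) and the proteasome gene Rpn7 (0.22), all highest at ZT18, each lost their call in 10 or 11 of the 12 fits that leave out 1 library, and with the replicate block 0 of the translation genes were called. Prosbeta5 and Nop56 were called in all 12. The catalytic proteasome subunit gene Prosbeta5 read 254.9, 272 and 253 CPM at ZT0, 261, 281 and 299 CPM at ZT6, 260, 249 and 266 CPM at ZT12 and 337, 332 and 390 CPM at ZT18, with only ZT18 apart (amplitude 0.45 ± 0.067, adjusted p = 0.00271). The nucleolar gene Nop56 was at 26.5 ± 0.887 CPM at ZT18 and 20.9 ± 1.01 CPM at ZT12. Among 17 calcium and excitation genes 4 were called (23.5%, near the 17.8% of all genes, and 2 without ZT6 replicate 3 or ZT12 replicate 1), with the sodium-calcium exchanger gene Calx at 182 ± 6.61 CPM at ZT0 and 143 ± 7.79 CPM at ZT18 and the potassium channel gene Shal at 25.9 ± 0.776 CPM at ZT12 and 22.0 ± 0.318 CPM at ZT18. The muscle transcription factor gene Mef2 had an amplitude of 0.17 ± 0.034, from 244 ± 5.58 CPM at ZT0 to 217 ± 4.07 CPM at ZT18.

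**Figure D4:**
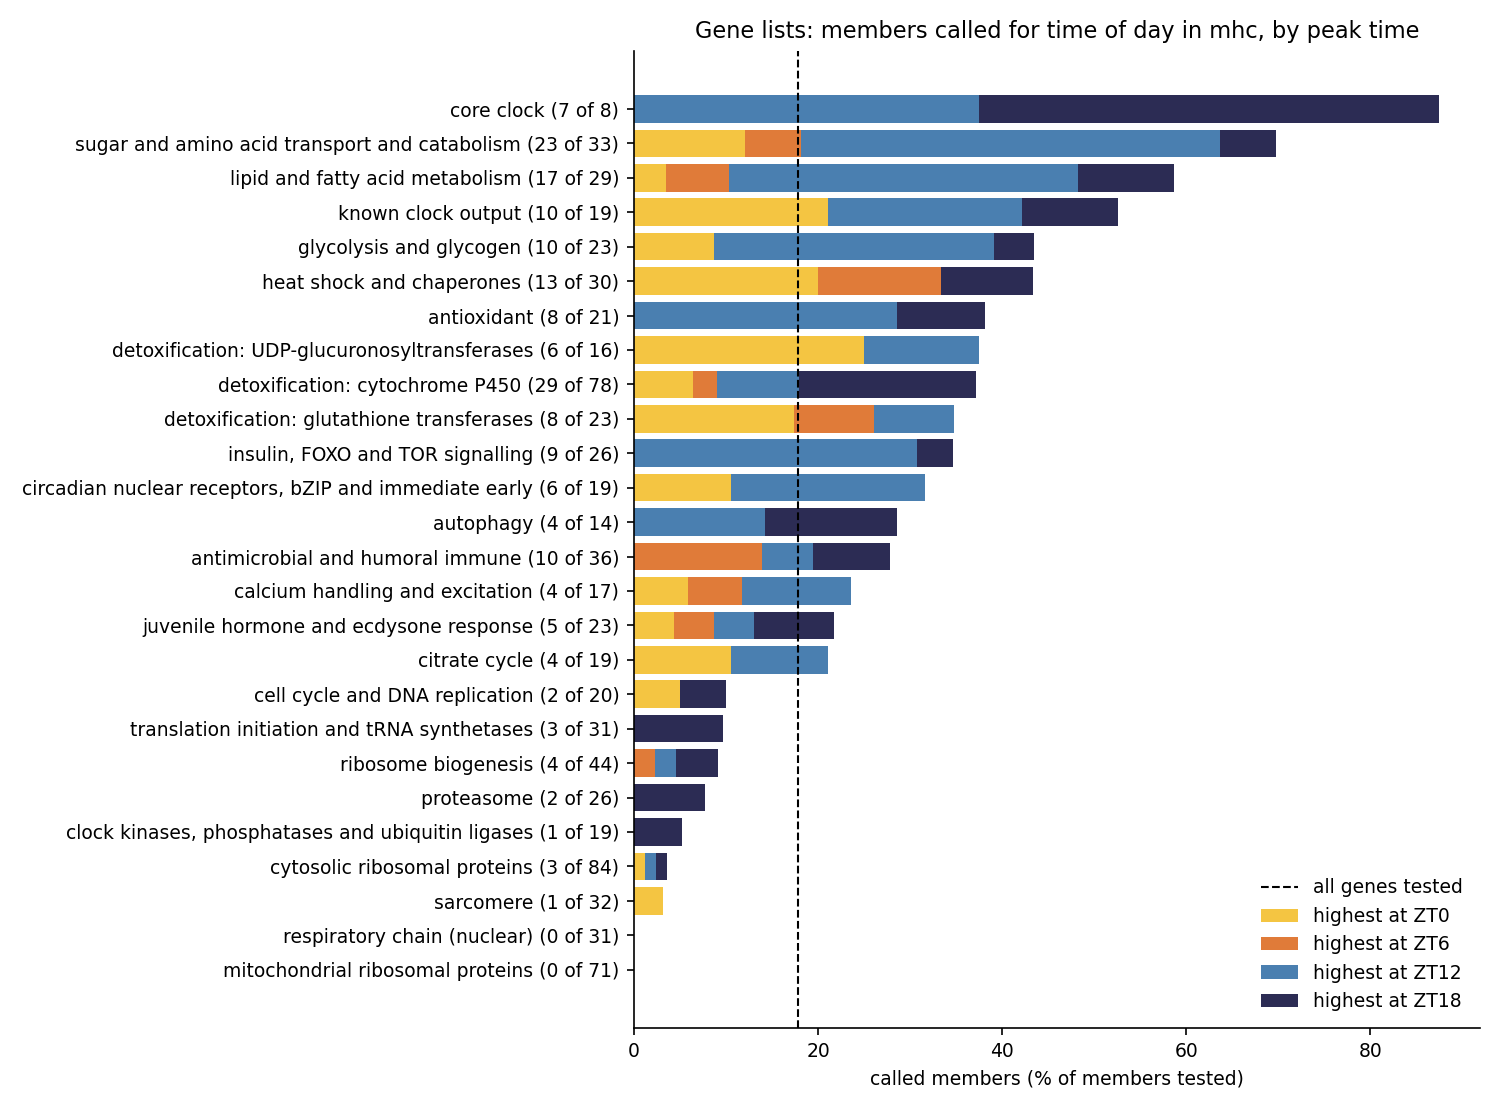
Share of tested members of each gene list that was called for time of day in mhc, in percent, with colours for the time point of the highest mean and counts in the labels. The dashed line marks the 17.8% of all genes tested; the core clock, known clock output, sugar and amino acid, and lipid lists lie above it, and the sarcomere, ribosomal, proteasome, respiratory chain and clock kinase lists below.

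Marker lists of other tissues moved to different degrees beside these results, and their part in them was not tested. The background for these counts is the 17.8% of all genes called. Of 17 tested fat body markers 6 were called (35.3%), with CG6910 (Miox in RefSeq) at 818 ± 61.9 CPM at ZT12 and 549 ± 40.7 CPM at ZT0, while the summed list was 18698 to 19951 CPM at ZT12 and 18056 to 18648 CPM at ZT0. Of 24 gut markers 10 were called (41.7%), 6 of them lowest at ZT12. Of 8 hemocyte markers 4 were called (50.0%) and none without ZT12 replicate 3 (1 or 2 without any of 8 other libraries), while their sums were 1059 to 1096 CPM at ZT6 and 1167 to 1193 CPM at ZT12. Of 7 trachea markers 4 were called (57.1%) and 2 without ZT12 replicate 3 or any of 6 other libraries, with verm at 20.4 ± 1.07 CPM at ZT0 and 13.1 ± 0.565 CPM at ZT18. Neuron, glia, cuticle and ovary lists, with 2 of 14, 2 of 10, 4 of 33 and 1 of 10 called (for neuron and cuticle 14.3 and 12.1%), had shares near or below the background. The neuron count was 0 to 3 with each library left out in turn, 0 with all 23 transgenic libraries and 8 by DESeq2, and the glia and cuticle counts were 4 and 8 by DESeq2. The oenocyte list had 0 of 4 called (1 at an unadjusted p under 0.05 by edgeR) and the testis list 0 of 2 (0 unadjusted), with 0 of either by DESeq2 or voom, and no accessory gland gene passed the filter. The dosage compensation RNA roX1 was called (adjusted p = 0.0493, amplitude 0.16), though in 1 of the 12 fits that leave out 1 library, and roX2 was not.

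All 11 called photoreceptor genes of 13 tested were highest at ZT12. The rhodopsin gene ninaE was at 0.29 and 1.43 CPM in replicates 1 and 2 of ZT12, at 2047 CPM in replicate 3 and at 0.31 to 0.55 CPM in the 9 libraries of the other times. The high level was thus that of a single library, and without it 1 gene of the list was called. Limma with voom called 0 of the list on all 12 libraries, and the fit with the replicate block 1.

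A set of 8 genes was high in all 3 ZT12 libraries and close to 0 elsewhere: CG8343, CG9676, CG8329, CG3088, CG7829, CG11211, CG18673 and CG32523. They were chosen after their values were seen, as those with every ZT12 library more than 8 times the highest other mhc library, so their difference is a description. CG8329 read 260, 287 and 170.5 CPM at ZT12 (scaled to the raw library total) and at most 0.143 CPM in the other 9 mhc libraries, and CG8343 read 170.5, 217 and 138 CPM and at most 0.48 CPM. CG3088 was at 128, 136 and 98.3 CPM and had 0 counts in the other 9 libraries. In the 31 libraries of the strain day course the highest value of any of the 8 was 0.7405 CPM. Among the mhc>timeless libraries they were high in ZT18 replicate 3, where CG8329 was at 146 CPM, against 0.0216 and 0.251 CPM in ZT18 replicates 1 and 2 and at most 0.182 CPM at the other times. Of the 30 called genes with an amplitude over 3 and a peak at ZT12, 8 belong to this set and 14 to the photoreceptor list or to the genes high in ZT12 replicate 3 alone.

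The driver control and mhc>timeless, which the design lists together, were compared by crest and by profile. In mhc>timeless 1943 of 12452 genes tested were called (15.6%), and 1061 genes were called in both, 53.8% of the mhc calls and 54.6% of the mhc>timeless calls. Of these 795 had the same peak time and 953 (89.8%) had crests within 3 h, with a median difference of -0.04 h. A test of the difference between the daily profiles called 16 of 12727 genes (0.126%). At their head was tim (adjusted p = 7.11e-05), with an amplitude of 0.61 in mhc>timeless, where its means were 1245, 1025, 1194 and 1561 CPM from ZT0 to ZT18. The count of tim in mhc>timeless may hold reads of the driven copy as well as of the fly's own gene. The part of such reads in the log2 amplitude of tim was not tested. Its crests were at 18.1 h in mhc and 18.3 h in mhc>timeless. Whether the rhythm of the fly's own gene differed was not tested. The call for tim held in all 16 alternatives run (adjusted p up to 5.49e-04), but the count of 16 genes did not. It fell to 2 without ZT12 replicate 1, ZT18 replicate 1 or ZT18 replicate 3, to 3 without ZT0 replicate 3 or ZT12 replicate 2, to 5 without ZT18 replicate 2, and to 10 without ZT0 replicate 1 or ZT6 replicate 2. Among the 16 were CG8343, CG9676, CG8329, CG7829, CG11211 and CG18673, all in the set of 8 genes above. That set was high in all 3 ZT12 libraries of mhc, but in mhc>timeless only in ZT18 replicate 3. The profiles of the other 7 core clock genes were not called different (adjusted p from 0.228 for per to 0.929 for cyc).

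A small group of crests lay apart in that comparison. Of the 1061 genes 15 had a crest at 11 to 13 h in mhc and 17 to 19 h in mhc>timeless, of which 8 are photoreceptor genes, 5 belong to the set of 8 genes above and the other two are CG14762 and rtp. The photoreceptor list was high in ZT12 replicate 3 of mhc and ZT18 replicate 3 of mhc>timeless, and the set of 8 in all 3 ZT12 libraries of mhc and in that same mhc>timeless library.

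The parental strain was compared in the same way. In B3 1382 of 12295 genes were called (11.2%), and 588 were called in both, 29.8% of the mhc calls and 42.55% of the B3 calls. Crests came earlier in B3, by a median of 3.25 h, and 279 of the 588 were earlier by 1 to 6 h, while 193 (32.8%) were within 3 h and 207 (35.2%) more than 6 h apart. The test of the difference between the daily profiles called 1565 of 11435 genes (13.7%). The mhc libraries had 7.53 to 11.6 reads set aside as not uniquely aligned per 100 counted and the B3 libraries 24.4 to 29.4, and the part of this in the difference was not tested. The B3 and mhc libraries share neither strain label nor transgene, so strain, transgene and any difference in how the sets were sampled cannot be told apart.

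Most clock genes crested earlier in B3, and cwo later. In B3 the crest of tim was at 16.8 h, per at 15.9 h, vri at 14.8 h, Pdp1 at 16.2 h and Clk at 4.10 h, against 18.1, 16.2, 17.4, 17.3 and 6.75 h in mhc, and cwo was at 17.01 h against 14.0 h. Amplitudes of tim and Clk were larger in B3, at 3.06 and 1.67 against 2.38 and 0.73 in mhc, and the tests of the difference in profile called both (adjusted p = 3.23e-08 and 2.25e-08). Those of per, Pdp1 and cry were also larger in B3, at 1.73, 1.11 and 1.28 against 1.36, 0.79 and 0.41. The amplitude of cwo was smaller in B3, at 0.46 against 0.85 (adjusted p of the profile difference 4.32e-04), and that of vri was 0.96 against 0.98. These tests compare whole profiles, and the amplitudes alone were not tested. At ZT12 the mean of tim was 654 CPM in B3 and 271 CPM in mhc, while at ZT6 it was 115 and 148 CPM.

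Peak times differed between mhc and B3 by phase. Of the genes called in both, 134 of the 172 that peaked at ZT0 in mhc also peaked at ZT0 in B3, while of the 201 that peaked at ZT12 in mhc 68 did so in B3 and 85 peaked at ZT0. Some metabolic genes of ZT12 were among those that moved. AcCoAS was highest at ZT0 in B3, with means of 949, 666, 658 and 559 CPM from ZT0 to ZT18. CG4607, Got1, PyK and CG3523 also peaked at ZT0 there. Lpin and CG3999 instead crested at 19.5 and 18.1 h in B3, against 10.2 and 8.62 h in mhc. The interaction test did not call Pgi and CG1139 different (adjusted p = 0.200 and 0.228). Their crests were at 10.5 and 8.45 h in mhc and 9.53 and 4.97 h in B3. Hsp83, lowest at ZT12 in mhc, had its highest mean there in B3, with 1119, 1678, 1899 and 1430 CPM from ZT0 to ZT18, and its profile differed from that of mhc (adjusted p = 1.01e-09). Pepck was highest at ZT12 in B3, where it was not called for time of day (adjusted p = 0.0569), and its profiles differed (adjusted p = 7.27e-04).

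**Figure D5:**
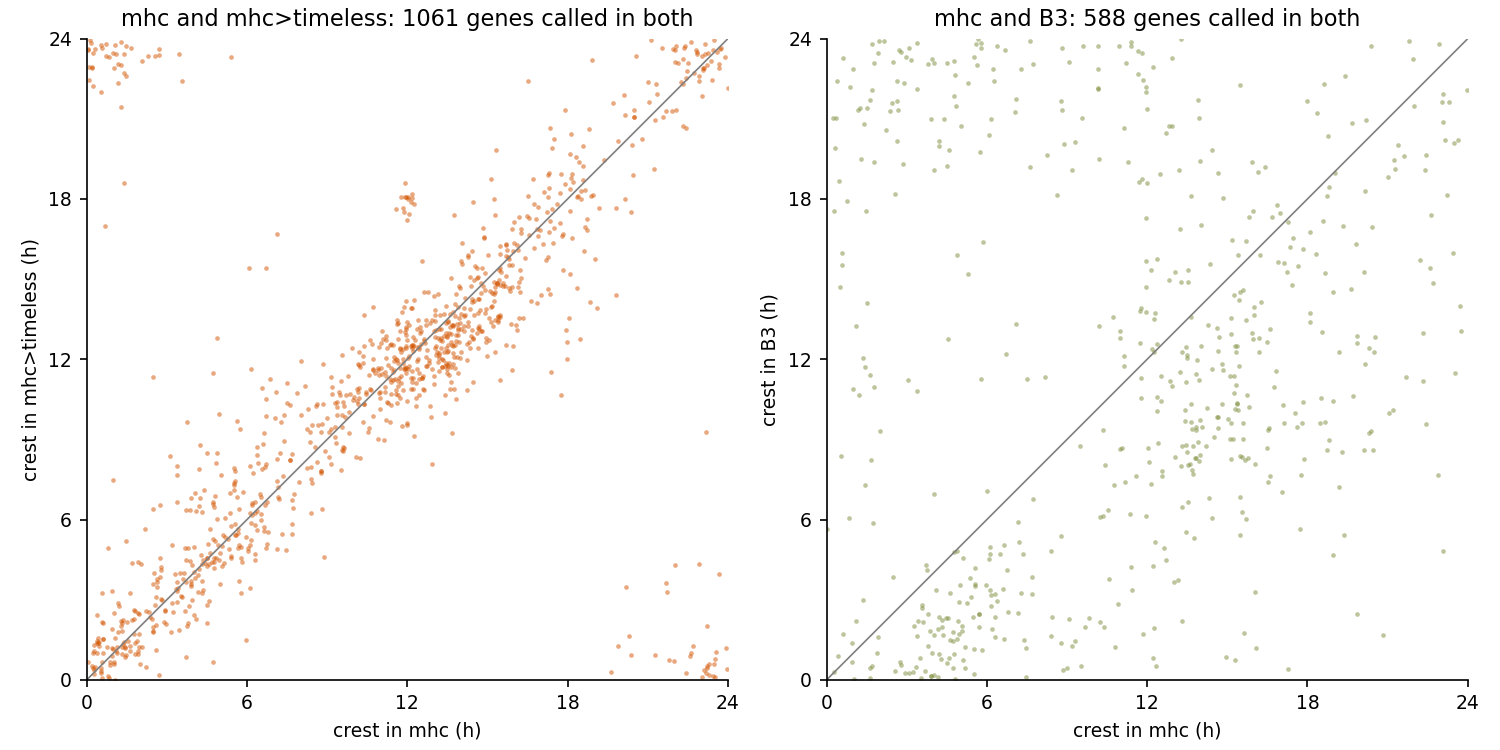
Hour of the crest of the 24 h component in mhc (horizontal axis, h) against mhc>timeless (left, 1061 genes) and B3 (right, 588 genes), for genes called in both day courses; each point is a gene, the line marks equal hours, and both axes wrap at 24 h. On the left most points lie along the line, and on the right many lie below it, with a median difference of -3.25 h.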

How the data were processed

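RNA was extracted with Trizol and sequenced from stranded mRNA libraries on Illumina instruments, per the labels. BWA, STAR, HTSeq and the dm3 build are named with no versions per the submitters' processing notes, and the strand setting of the counting is not given in the sources used here. For that reason 39 of the 121 named genes whose span overlaps another gene in RefSeq Release 6 may share reads. The deposited tables hold the authors' raw count per gene, 15682 genes a library. Rows that name no gene stayed out of totals and tests (7.12 to 9.73% of reads with no feature and 2.37 to 2.54% ambiguous in mhc). At 53.1 to 168 M counts a library, 3 counts equal 0.0178 to 0.0565 CPM. Replicate libraries differed by more than counting noise in all 12 pairs.

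edgeR 4.0.16 (R 4.3.3) kept 11074 genes with filterByExpr by group, scaled by TMM (factors 0.983 to 1.02) and fitted a quasi-likelihood model to the 12 mhc libraries. The joint test used 3 contrasts among 4 times with Benjamini-Hochberg adjustment. CPM values were scaled to the TMM-adjusted library size, except for marker sums and the set of 8 genes, which used the raw library total. The B3 profile was tested within the 31 libraries of the strain day course, the mhc>timeless profile within its 11 libraries, and differences of profile by interaction tests. Alternatives were median-of-ratios scaling, no filter, a replicate block, all 23 transgenic libraries, thinned counts, each library left out, DESeq2 1.42.0, limma 3.58.1 with voom, and other thresholds. Tests were checked on simulated data.

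Named genes were the core clock, the 15 smallest p-values and the 6 largest non-overlapping amplitudes per time among genes averaging 2 or more in log2 CPM, up to 3 called members a list by smallest p, and the 5 genes most like tim. Other members and the set of 8 genes were named after their values were seen. The genes and lists were chosen with earlier results of these data known. The 3 replicate numbers were not used to pair libraries in the main test. Of 18 same-number pairs 6 had residual correlations over 0.1. Their median was -0.099, against 0.026 for the 36 pairs with other numbers. With 3 libraries a group these correlations cannot exclude a pairing.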

Additional observations from a re-analysis of the deposited data

Results flagged for a closer look

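Of the 121 named genes 4 had a daily profile in mhc>timeless that differed from that in mhc, by adjusted p of edgeR's interaction test: tim (7.11e-05), Prosbeta5 (0.0327), Nop56 (0.0327) and IM14 (0.0306). Amplitudes in mhc and mhc>timeless were 2.39 against 0.61 for tim, 0.45 against 0.15 for Prosbeta5, 0.34 against 0.21 for Nop56 and 0.79 against 0.75 for IM14, whose crest was at 6.74 h in mhc and 15.4 h in mhc>timeless. The tim count in mhc>timeless may include reads of the driven copy, and their part in its log2 amplitude was not tested.

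Among the 41 clock, smallest-p and large-amplitude genes 31 had a daily profile in B3 that differed from that in mhc by the same test. The clock genes were per (0.00206), tim (3.23e-08), Clk (2.25e-08), vri (1.04e-04), Pdp1 (0.0217), cwo (4.32e-04) and cry (9.17e-08). The next were Hsp83 (1.01e-09), Jhe (3.23e-08), CG2277 (6.78e-04), Magi (0.00769), CG34180 (1.34e-04), CG16772 (0.0105), Invadolysin (7.46e-06), CG8654 (9.50e-06), CG9649 (1.98e-04), CG31300 (0.00448), CG8408 (2.47e-05), CG11407 (0.00127) and CG17127 (0.00356). The others were TotC (0.00748), Tsp42Ea (0.0129), GIIIspla2 (0.0159), CG8147 (0.00186), Mdr50 (0.00216), GstD8 (0.0316), CG3999 (2.15e-04), Cyp4e3 (0.00183), CG4734 (0.00151), CG15199 (0.00533) and Jon74E (0.0251). Of the other 80 named genes 45 also differed from B3.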

How the results depend on the processing

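The joint count of 1971 genes lay between 1747 and 2871 under median-of-ratios scaling, no filter, thinning, all 23 transgenic libraries, DESeq2 (2863) and voom (1891). It became 988 without ZT18, 751 without ZT12 (added after seeing the data), 777 at an adjusted p of 0.01 and 186 with an amplitude of at least 1. The 24 h count became 2175 with all 23 transgenic libraries, which give the fit more samples. There the genes lower at ZT12 than at ZT0 became 700 (from 441), those higher at ZT18 than at ZT6 601 (from 335), and the ZT18 peaks 1113 (from 655). DESeq2 gave 1084 peaks at ZT12 (from 694) and 367 at ZT6 (from 228). By list, DESeq2 called 16 glycolysis, 17 immune, 9 juvenile hormone and ecdysone, 6 clock kinase, 4 sarcomere and 5 proteasome genes, and all 23 libraries gave 11 ribosome biogenesis, 6 translation, 6 proteasome and 5 mitochondrial ribosomal protein genes. With each mhc library left out in turn, the joint count ranged from 1341 to 1825, the 24 h count from 936 to 1407, the 12 h count from 562 to 767, genes that differed between ZT12 and ZT0 from 556 to 1137, those between ZT18 and ZT6 from 297 to 637, and profiles that differed from mhc>timeless from 2 to 24. The profiles that differed from B3 ranged from 1250 to 1536 there, and the joint counts in mhc>timeless and B3 stayed within 1.5 times under the alternatives run.

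With the replicate number as a block, 1745 genes were called, 1606 of them among the 1971; same-number residuals had correlations of -0.56 to 0.41, and 4 of 12 libraries correlated best with their own number. Of the 129 genes carried through the alternatives (the 121 named by rule and the set of 8) none reversed direction, while other members given with values were not carried through, and calls with an adjusted p near 0.05, among them CkIIalpha, sqa and roX1, were lost in some. Genes that did not pass filterByExpr, which kept 11074 of 15682, were not tested. At this depth 3 counts in a library equal 0.0178 to 0.0565 CPM, and levels near that rest on few reads.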
